A study of Mus musculus with 18 samples.

Results

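The mevalonate and isoprenoid steps of cholesterol synthesis were followed through 9 genes, Acat2, Hmgcs1, Mvk, Pmvk, Mvd, Idi1, Fdps, Ggps1 and Fdft1. Every array probe deposited under one of these gene names was taken, whatever its signal, which gave 18 of the 41174 probes on the array. All 18 passed the filter on dim probes, as did 25427 probes of 17681 genes in all. The study measured liver RNA of male CD-1 mice, an outbred stock, that ate a powdered diet with or without bisphenol A, a monomer of polycarbonate plastics that binds estrogen receptors weakly, for 28 days. The mice were 9 weeks old, and the groups were control (0 µg/kg/day), a low dose of bisphenol A (50 µg/kg/day) and a high dose (5000 µg/kg/day), with 6 mice each. All groups ate the same purified diet base, rich in starch and sucrose, and the doses are averages calculated from an assumed food intake. A fragment of the large liver lobe of each mouse was hybridised to its own 1-colour Agilent array.

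The mevalonate pathway turns acetyl-CoA into 5-carbon isoprenoid units, joins them to farnesyl diphosphate, and from there feeds squalene into sterol synthesis and geranylgeranyl diphosphate into protein prenylation. The liver is a main site of this pathway. Its genes are known targets of SREBP2, a transcription factor that is released from the endoplasmic reticulum when membrane cholesterol is low.

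Levels are log2 of the background-subtracted spot intensity minus the 75th percentile of the same array, so 1 unit is a doubling and levels of different probes are not comparable. A difference is called when limma's test, fitted over all kept probes at once, gave a Benjamini-Hochberg adjusted p under 0.05. The 75th percentile before scaling was 228.4 ± 42.5 in control mice, 291.3 ± 43.7 in low-dose mice and 287.2 ± 34.6 in high-dose mice (SD, n = 6 each, arbitrary intensity units). Arrays of both dosed groups were thus brighter than those of controls, by 0.36 (low dose) and 0.34 (high dose) on the log2 scale, and differed from each other by -0.01. Arrays with the same scan date in the file headers were taken to share a slide. By this rule the arrays lay on 5 slides, all with both dosed groups and 4 with controls, and position on the slide was not balanced between groups. The liver label fitted the hepatocyte markers: Alb, Fgb and Ahsg were saturated on all 18 arrays and Apoa1 on 17. In such bulk tissue, fewer cells of a type and less RNA per cell cannot be told apart.

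Of the 9 genes, 7 had a promoter in the RefSeq table (GRCm38.p6), with 8 promoters in all, each 250 bases before to 50 bases after the start site. Fdps and Fdft1 had none there. Each promoter was searched on both strands for TCACNCCAC, the core of the sterol regulatory element bound by SREBP, for CCAAT, the letters of the NF-Y site, and for GGGCGG, those of the SP1 site. The Mvd promoter is shown because Mvd was the member called in these data, and that of Hmgcs1 because it alone among the 8 holds the sterol element core. Capitals mark every match to any of the 3 motifs on either strand, no matches overlap, and the strand given is that of the gene.
Mvd, chr8:122443373-122443672, minus strand: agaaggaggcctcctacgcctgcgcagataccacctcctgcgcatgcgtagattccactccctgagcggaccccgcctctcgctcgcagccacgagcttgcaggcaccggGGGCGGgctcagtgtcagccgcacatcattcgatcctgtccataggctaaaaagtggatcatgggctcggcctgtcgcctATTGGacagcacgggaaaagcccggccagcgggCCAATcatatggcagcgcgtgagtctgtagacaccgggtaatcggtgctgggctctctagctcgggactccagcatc
Hmgcs1, chr13:119690101-119690400, plus strand: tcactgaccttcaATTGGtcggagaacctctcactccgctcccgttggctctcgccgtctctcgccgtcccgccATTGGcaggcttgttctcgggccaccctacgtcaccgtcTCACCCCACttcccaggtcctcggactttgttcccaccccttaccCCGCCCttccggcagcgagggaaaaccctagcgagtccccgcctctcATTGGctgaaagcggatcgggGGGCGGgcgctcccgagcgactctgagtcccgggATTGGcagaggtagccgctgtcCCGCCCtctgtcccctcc
The Hmgcs1 window holds 1 sterol element core, which begins 137 bases before the start site, 4 CCAAT motifs and 3 GC boxes. The Mvd window holds 2 CCAAT motifs and 1 GC box and no match to the sterol element core. The sterol element core occurs in 1.24% of the 32851 promoters of the table, CCAAT in 37.4% and the GC box in 35.7%. CCAAT was found in 6 of the 8 member promoters and in 6 of the 7 genes: Hmgcs1 had 4 matches, Mvk 5, Ggps1 3, Idi1 2, Mvd 2 and 1 of the Pmvk promoters 1. A match is a description of the letters only.

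At the low dose the data show 1 called member: Mvd, mevalonate diphosphate decarboxylase, rose 3.26-fold over control. Values of Fdps, farnesyl diphosphate synthase, and Fdft1, squalene synthase, lay above control at the low dose without passing the test. At the high dose no member differed from control by the test, and Mvd stood 0.36 over control on the log2 scale. Of the 18 probes, 1 was called for low dose against control, where 0.216% of all probes tested were called, and 0.169% with the low dose higher. Without adjustment, limma's p was under 0.05 for 5 member probes that were higher and 1 that was lower in low-dose mice. That is 33.3% of the 18, where 12.1% of all probes had such a p, 5.77% higher and 6.33% lower. Among the higher probes is the dim Fdft1 A_52_P136138, well above background on 5 low-dose, 4 high-dose and 1 control array. It thus passed the filter through the dosed mice, and its sign changed with another background method. The lower probe, that of Acat2, was read from 2 low-dose mice. The log2 fold change was above 0 for 16 of the 18, where that held for 47.7% of all probes, and its median was 0.27 over the member probes and -0.01 over all probes. The member median was 0.14 without control mouse 6, 0.18 without low-dose mouse 3 and 0.18 with another background method (normexp), which left 11 of the 18 above 0. The medians over all probes in these settings, in the same order, were -0.0018, -0.019 and -0.15. Probes of the same gene share their transcript and are not separate observations.

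**Figure D1:**
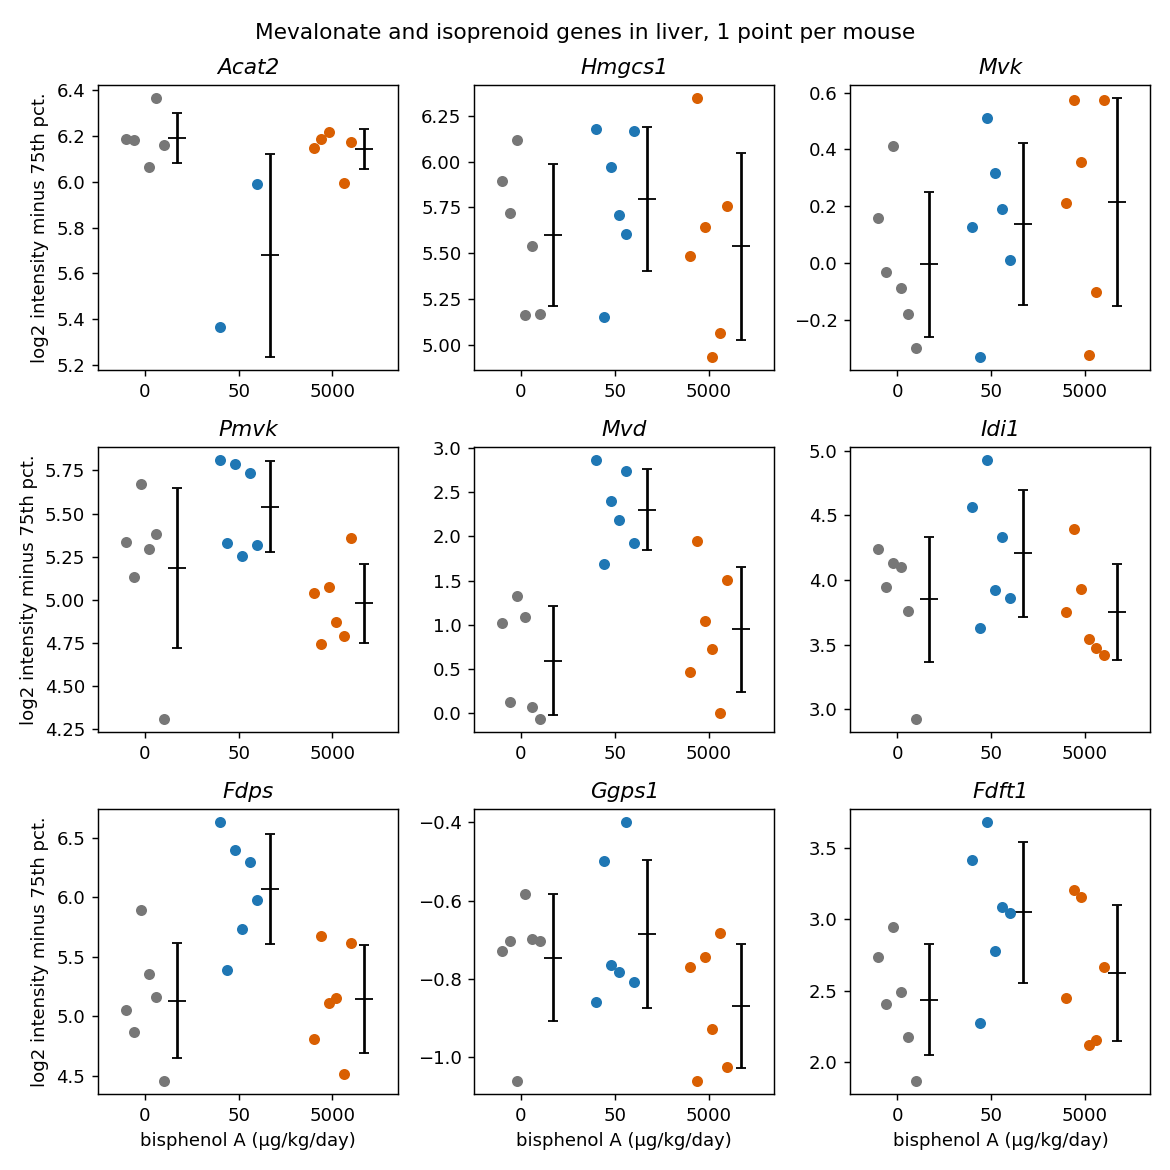
Levels of the 9 genes in each mouse, each from its brightest probe, with bisphenol A dose in µg/kg/day on the x axis and log2 intensity minus the array's 75th percentile on the y axis, which differs in range between panels. Points are mice and the black bars mean ± SD. The 6 low-dose mice sit between 1.69 and 2.87 for Mvd, above all control mice, while Acat2 has only 2 low-dose mice because 4 spots were marked as outliers.

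Acat2, the cytosolic thiolase that condenses acetyl-CoA to acetoacetyl-CoA, was measured by 1 probe (A_51_P139748, chromosome 17, 12786563 to 12786622, minus strand, build mm8). The scanner software marked its spot as an outlier on 1 control array, 4 low-dose arrays and 1 high-dose array, and the fit leaves these out. The remaining low-dose mice had 5.36 and 5.99, against a lowest, median and highest of 6.07, 6.18 and 6.37 in 5 control mice. The difference of -0.51 ± 0.16 (SE) was not called (adjusted p = 0.228). With the marked spots kept, an alternative chosen after the data were seen, the 6 low-dose mice ranged from 5.36 to 6.39, on both sides of the control mice, and the difference was -0.25 ± 0.15 (SE, adjusted p = 0.543). The probe's deposited annotation also lists a transcript of the neighbouring gene Acat3.

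Hmgcs1, cytosolic HMG-CoA synthase, was measured by 3 probes (A_51_P146941, A_52_P388072 and A_52_P119039), whose mm8 positions lie on the unplaced part of chromosome 13. The brightest, A_51_P146941, had a lowest, median and highest of 5.16, 5.63 and 6.12 in control mice, 5.15, 5.84 and 6.18 in low-dose mice and 4.93, 5.56 and 6.35 in high-dose mice. The 3 groups overlapped almost fully. The low-dose differences from control of the 3 Hmgcs1 probes were 0.20 ± 0.24, 0.16 ± 0.26 and 0.03 ± 0.51 (SE), and none was called. The interval of the first, -0.31 to 0.70 (95%), leaves room for a change of up to 1.62-fold.

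Mvk, mevalonate kinase, was measured by A_52_P569067, whose ends lie 2948 bases apart on chromosome 5 (114716983 to 114719930, plus strand, mm8) and so cross an intron, and by A_51_P169527. On the brighter probe, A_52_P569067, the lowest, median and highest were -0.30, -0.06 and 0.41 in control mice, -0.33, 0.16 and 0.51 in low-dose mice and -0.32, 0.28 and 0.58 in high-dose mice. The groups overlapped over nearly their whole range, and the differences from control were 0.14 ± 0.17 (low dose) and 0.22 ± 0.17 (high dose; SE, adjusted p = 0.805 and 0.819). Mvk was the member whose difference between the high and the low dose was nearest to 0 among the brightest probes, at 0.08 (95% interval -0.29 to 0.44). Within slides, both Mvk probes were higher at the high dose than in controls on 4 of 4 slides.

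Pmvk, phosphomevalonate kinase, was read by 2 probes that abut on chromosome 3 (A_51_P492408, 89554684 to 89554743, and A_51_P492410, 89554744 to 89554803, plus strand, mm8), and these gave nearly the same values. A_51_P492410 had a lowest, median and highest of 4.30, 5.31 and 5.67 in control mice, 5.25, 5.53 and 5.81 in low-dose mice and 4.74, 4.95 and 5.36 in high-dose mice. The mean of the controls lay between those of the doses, and 5 of 6 high-dose mice lay under every low-dose mouse. The difference of the high dose from the low dose was -0.56 ± 0.19 on A_51_P492410 and -0.62 ± 0.19 on A_51_P492408 (SE), neither called (adjusted p = 0.448 and 0.359). It was below 0 on 5 of 5 slides for both Pmvk probes. Low-dose mice differed from controls by 0.35 ± 0.19 and 0.38 ± 0.19 on these probes (SE, adjusted p = 0.483 and 0.450), with control mouse 6 far under the other controls.

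Mvd, which decarboxylates mevalonate diphosphate to isopentenyl diphosphate, had 1 probe (A_51_P355943, chromosome 8, 125319940 to 125319999, minus strand, mm8), well above background and unsaturated on all 18 arrays. Its lowest, median and highest level was -0.07, 0.58 and 1.33 in control mice, 1.69, 2.29 and 2.87 in low-dose mice and 0.01, 0.89 and 1.95 in high-dose mice. Every low-dose mouse lay above every control mouse, while the high-dose mice spread over the control range, with mice 2 and 6 above it. Such a separation, with the low-dose group higher, held for 0.861% of probes measured on all arrays. The low dose averaged 2.30 ± 0.46 and the control 0.60 ± 0.62 (SD, n = 6 each), a log2 fold change of 1.70 ± 0.33 (SE, adjusted p = 0.0410). The 95% interval of the fold was 2.02 to 5.26. The high dose averaged 0.95 ± 0.71 (SD, n = 6) and differed from control by 0.36 ± 0.33 (SE, adjusted p = 0.850). High against low dose gave -1.35 ± 0.33 (SE, adjusted p = 0.178), which was not called although 5 of 6 high-dose mice lay under all low-dose mice.

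The Mvd call stood close to the threshold. Leaving out 1 array at a time kept the log2 fold change of Mvd between 1.57 and 1.85, but the adjusted p then ran between 0.0249 and 0.113 and the call was lost for 11 of the 18 arrays. The Mvd adjusted p was 0.0761 without control mouse 1, 0.0776 without control 2, 0.0727 without control 4, 0.113 without control 5 and 0.0873 without control 6. It was 0.110 without low-dose mouse 1, 0.0800 without low-dose 3, 0.0758 without low-dose 5 and 0.0792 without low-dose 6. It was 0.0501 without high-dose mouse 1 and 0.0536 without high-dose mouse 3, although neither enters the difference itself. With slide as a block, Mvd differed by 1.64 (adjusted p = 0.154), and with array brightness as a covariate by 1.99 (adjusted p = 0.383). Within slides, low-dose mice exceeded controls in Mvd by 0.97, 1.21, 1.86 and 2.68 on the 4 slides that held both. High-dose mice lay below low-dose mice on all 5 slides, by differences of -0.86 to -1.67. The part of slide position in the low-dose difference was not tested.

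**Figure D2:**
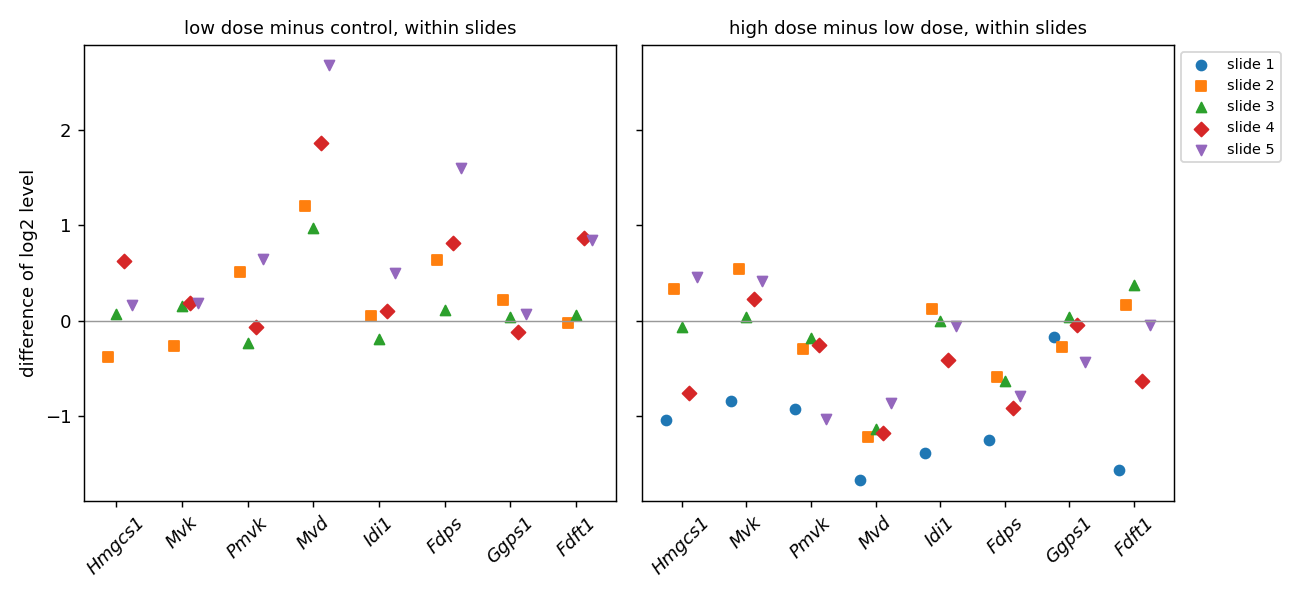
Differences of log2 level within slides for 8 genes (brightest probe; Acat2 is left out for its missing spots), for low dose minus control on the left and high dose minus low dose on the right. Each symbol is 1 slide holding 1 or 2 mice of a group. Mvd and Fdps lie above 0 on 4 of 4 slides on the left and below 0 on 5 of 5 slides on the right, and Pmvk is below 0 on 5 of 5 slides on the right.

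Idi1, isopentenyl diphosphate isomerase, was read by A_51_P329711 and A_52_P441634. The mm8 positions deposited for both lie on chromosome 2 (53516550 to 53516609 and 53518541 to 53518600, minus strand), whereas the RefSeq table places Idi1 on chromosome 13, and the locus that gave the signal was not tested. On A_51_P329711 the lowest, median and highest were 2.92, 4.02 and 4.24 in control mice, 3.63, 4.13 and 4.93 in low-dose mice and 3.42, 3.65 and 4.40 in high-dose mice. The groups overlapped, with 3 low-dose mice above all controls. The 2 Idi1 probes agreed in their low-dose differences from control, 0.36 ± 0.25 and 0.35 ± 0.28 (SE, adjusted p = 0.615 and 0.680), and in those of the high from the low dose, -0.46 ± 0.25 and -0.44 ± 0.28 (SE, adjusted p = 0.728 and 0.788).

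Fdps joins the 5-carbon units to farnesyl diphosphate, the branch point of the pathway. It was read by A_51_P379798 (chromosome 3, 89180817 to 89180957, minus strand, mm8, its ends 141 bases apart) and A_52_P593965 (89185031 to 89185090, the same strand). On A_51_P379798 the lowest, median and highest were 4.46, 5.11 and 5.90 in control mice, 5.39, 6.14 and 6.63 in low-dose mice and 4.52, 5.13 and 5.68 in high-dose mice. On A_52_P593965 they were -0.71, 0.63 and 1.15 in control mice, 0.66, 1.86 and 2.56 in low-dose mice and -0.62, 0.48 and 1.19 in high-dose mice. Of the low-dose mice, 4 lay above every control on the first Fdps probe and 5 on the second, and the high-dose mice lay inside the control range on the first and, but for mouse 3 above it, on the second. The low-dose differences from control were 0.94 ± 0.26, or 1.92-fold, and 1.38 ± 0.37, or 2.60-fold (SE, adjusted p = 0.134 and 0.128), neither called. Within slides both probes were higher at the low dose on 4 of 4 slides. The high dose differed from control by 0.02 ± 0.26 and -0.02 ± 0.37 and from the low dose by -0.92 ± 0.26 and -1.40 ± 0.37 (SE, adjusted p = 0.275 and 0.228 for the differences from the low dose).

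Ggps1, which makes geranylgeranyl diphosphate for prenylation rather than for sterols, was read by 3 probes on chromosome 13 (A_51_P179604, A_51_P469902 and A_52_P228247). On A_51_P179604 the lowest, median and highest were -1.06, -0.70 and -0.58 in control mice, -0.86, -0.77 and -0.40 in low-dose mice and -1.06, -0.85 and -0.68 in high-dose mice. The groups overlapped, and the low-dose differences from control of the 3 probes were 0.06 ± 0.11, -0.16 ± 0.11 and 0.01 ± 0.13 (SE). These were the smallest standard errors of the 18 probes in this comparison, and the 95% interval of the first ran from -0.16 to 0.28, or at most 1.22-fold. A_51_P469902 was the only member probe with an unadjusted p under 0.05 for high dose against control, at -0.34 ± 0.11 (SE, adjusted p = 0.617), and 5 of 6 high-dose mice lay under all controls on it. The other Ggps1 probes differed by -0.12 ± 0.11 and -0.04 ± 0.13 (SE) in that comparison, so the gene's probes did not give 1 value.

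Fdft1 condenses farnesyl diphosphate to squalene and so commits it to sterols. Its brighter probe, A_51_P485946 (chromosome 14, ends 4241 bases apart from 62101042 to 62105282, minus strand, mm8), had a lowest, median and highest of 1.86, 2.45 and 2.95 in control mice, 2.28, 3.07 and 3.68 in low-dose mice and 2.12, 2.56 and 3.21 in high-dose mice. Of the low-dose mice, 4 lay above every control, and the other 2 lay inside the control range. The difference was 0.61 ± 0.25 (SE, adjusted p = 0.321), or 1.53-fold, and was not called. The second Fdft1 probe, A_52_P136138, was dim: it was well above background on 5 low-dose and 4 high-dose arrays but on 1 control array. Its low-dose difference from control of 1.32 ± 0.48 (SE, adjusted p = 0.264) turned to -0.39 with another background method (normexp), so its direction depends on how background was removed.

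**Figure D3:**
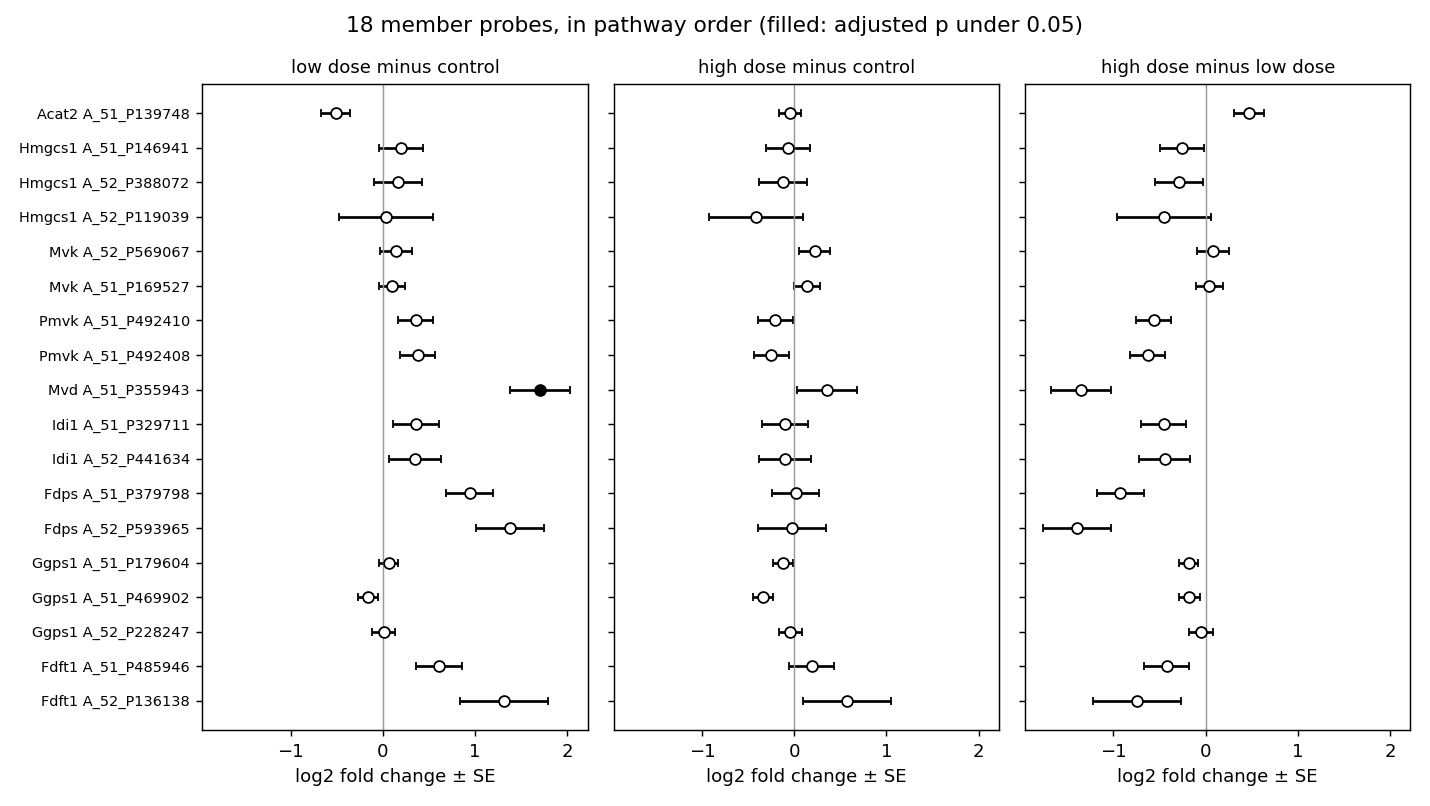
Log2 fold change ± SE of the 18 member probes in pathway order, for low dose minus control, high dose minus control and high dose minus low dose. The filled point, Mvd at 1.70 for low dose minus control, is the sole member probe with an adjusted p under 0.05, and open points are not called.

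Against control, the high dose gave 0 called member probes by limma, where 0% of all probes were called. Without adjustment 1 of the 18 had a p under 0.05, where 7.03% of all probes did and 3.66% were lower, and the median log2 fold change was -0.06 over the member probes and 0.00 over all probes. High against low dose also gave 0 called members, where 0.0433% of all probes were called. Without adjustment 6 of 18 had a p under 0.05, 1 higher (Acat2) and 5 lower at the high dose (Mvd and both probes each of Fdps and Pmvk), where 7.59% of all probes did, 3.43% higher and 4.16% lower. The Acat2 value rests on 2 low-dose mice, and with the marked spots kept its difference of the high from the low dose was 0.11 ± 0.15 (SE, adjusted p = 0.925). The median difference of the high from the low dose was -0.43 over the member probes, against 0.02 over all probes. With normexp it was -0.24 over the member probes, 7 of them above 0 in place of 3, against 0.12 over all probes. The comparisons of the low and the high dose with control share the control mice, and the comparisons with the low dose share the low-dose mice, so these values are set side by side and are not independent.

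Single mice moved many members together. In the control group, mouse 6 was the lowest on 11 of the 17 probes measured on all arrays and mouse 3 the highest on 8. Among low-dose mice, mouse 2 was the lowest on 11, and mouse 3 was the highest on 7 and mouse 1 on 6. Among high-dose mice, mouse 2 was the highest on 10, Mvd included. This mouse also stood apart in summed levels of cell markers on the linear scale. Its sum was 50.0 for neutrophils (S100a8 and S100a9 alone), against 0.595 to 3.27 in the other high-dose mice. It was 92.2 for cholangiocytes, against 10.1 to 16.3, and 164.1 for Kupffer cells and macrophages, against 46.1 to 73.1. The median log2 level of the cholangiocyte markers was -3.12 in this mouse, lower than in any other high-dose mouse. Their sum thus does not describe the typical marker of that list. Its sums were the lowest of the group for endothelial markers, 19.3 against 22.7 to 41.3, and for stellate markers, 11.9 against 16.4 to 85.4. A spot marked as an outlier adds nothing to a sum. The stellate sum of this mouse is too small to hold Dcn, the brightest stellate marker, which averaged 6.01 on the log2 scale at the high dose. The median log2 level of the stellate markers was 0.33 in this mouse and 0.31 in high-dose mouse 4. Without high-dose mouse 2, Mvd at the high dose differed from control by 0.16 (adjusted p = 0.973) and from the low dose by -1.55 (adjusted p = 0.106). The median over 8 genes (brightest probes, Acat2 left out) of a mouse's level minus the control mean ranged from -0.62 to 0.50 in controls, from -0.01 to 0.84 in low-dose mice and from -0.39 to 0.56 in high-dose mice. The low-dose range lay partly above the control range, with mice 1, 3 and 5 above all controls and the other 3 inside it. Correlations of deviations from group means, as a description over 18 arrays (fewer for Acat2) that share scaling and slides, had a median of 0.56 over the 36 pairs of brightest member probes and ran from -0.69 to 0.88. The lowest value was that of Hmgcs1 with Ggps1, and the highest that of Mvd with Fdps.

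**Figure D4:**
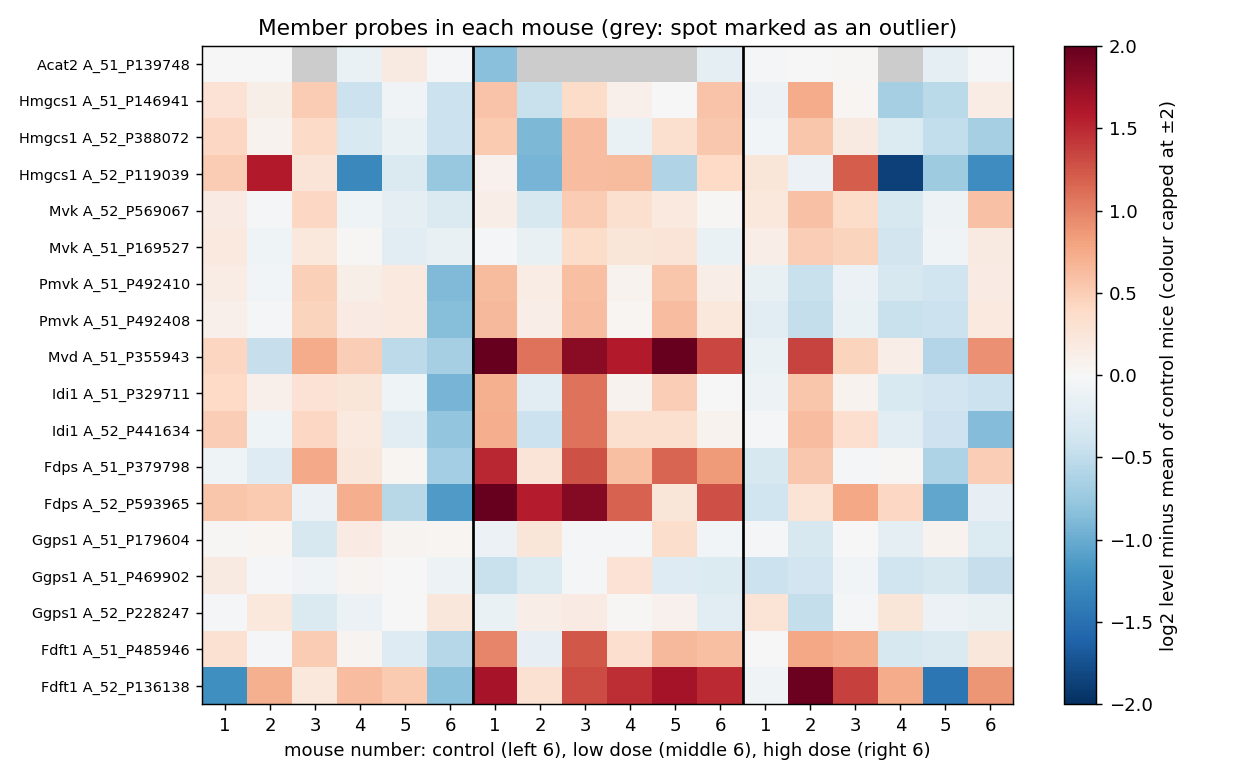
Level of each member probe (rows, in pathway order) in each mouse (columns, control, low dose and high dose from left to right) minus the mean of the control mice, on a log2 scale shown as colour and capped at 2 in either direction; grey cells are spots marked as outliers. The Mvd row is above the control mean in all 6 low-dose mice, and columns such as control mouse 6 and high-dose mouse 2 run low or high over many rows.

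Outside the members, the genes most like Mvd across the 18 arrays, ranked by Pearson's r among 17201 genes measured on all arrays, were Sqle (r = 0.94), the squalene epoxidase, and Lss (r = 0.93), lanosterol synthase, both of the sterol branch. Then came Tuba3a (r = 0.89), an alpha-tubulin, Lbr (r = 0.88), the lamin B receptor with sterol reductase activity, Cklf (r = 0.88), a chemokine-like factor, and Ostc (r = 0.87), a subunit of the oligosaccharyltransferase complex. Among the members, Fdps ranked second (r = 0.93) and Fdft1 at place 35 (r = 0.81), against place 473 for Hmgcs1 (r = 0.56) and place 8316 for Ggps1 (r = -0.04). Since Mvd was chosen for its low p, these values include the group difference. With group means removed, r to Mvd was 0.96 for Sqle, 0.83 for Lss and 0.88 for Fdps.

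The steps that turn squalene into cholesterol lay mostly above control at the low dose. Of 11 genes, each read from its brightest probe, 9 were above 0 for low dose against control, where 47.4% of all genes were, 0 were called and 6 had an unadjusted p under 0.05, all higher, where 11.3% of all genes had such a p. Their median log2 fold change was 0.47, against 0.35 over the 9 members and -0.01 over all genes. Lss averaged 1.98 ± 0.42 at the low dose and 1.11 ± 0.31 in controls (SD, n = 6 each), a difference of 0.87 ± 0.19 (SE, adjusted p = 0.0682). Sqle differed by 1.07 ± 0.38, Nsdhl, a sterol dehydrogenase, by 0.65 ± 0.19 and Hsd17b7, a sterol ketone reductase, by 0.49 ± 0.17 (SE, adjusted p = 0.247, 0.163 and 0.246). For high against low dose 1 of the 11 sterol genes was above 0, where 55.3% of all genes were. An unadjusted p under 0.05 was found for 6 of them, all lower, where 7.61% of all genes had one, with a median of -0.38 and 0 called. For high dose against control the median was 0.06, with 0 called and 0 under an unadjusted p of 0.05, where 6.63% of all genes were.

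Among 7 measured genes of SREBP control, 6 were above 0 for low dose against control (47.4% of all genes), 3 had an unadjusted p under 0.05, all higher (11.3% of all genes in either direction), and 0 were called. Stard4, a sterol transfer protein, averaged 3.02 ± 0.08 at the low dose and 2.45 ± 0.29 in controls (SD, n = 6 each), a difference of 0.57 ± 0.13 (SE, adjusted p = 0.0682). Srebf1, which encodes the SREBP1 factors, differed by 1.01 ± 0.26 and Insig1, which retains SREBP in the endoplasmic reticulum, by 0.92 ± 0.29 (SE, adjusted p = 0.124 and 0.192). Not every low-dose mouse entered the Srebf1 value, as spots marked as outliers were left out. Mbtps1, a protease that cleaves SREBP, differed by -0.11 ± 0.11 (SE, adjusted p = 0.761). Srebf2, the gene of SREBP2, differed from control by 0.10 ± 0.11 in low-dose mice (SE, adjusted p = 0.770). Its difference from control in high-dose mice was 0.19 ± 0.11 (SE, adjusted p = 0.752). Neither Srebf2 difference was called by limma. At the high dose, Srebf1 stood 0.78 ± 0.25 over control (SE, adjusted p = 0.617), while Stard4 and Insig1 each differed from control by 0.05.

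Users of the isoprenoids outside sterol synthesis, such as prenyltransferases and the makers of ubiquinone and dolichol, were read next. Of 13 measured genes, 8 were above 0 for low dose against control, where 47.4% of all genes were, with a median of 0.11. At an unadjusted p under 0.05, 1 was higher and 1 lower, where 11.3% of all genes had such a p, and 0 were called. Rabggtb, a subunit of the enzyme that prenylates Rab proteins, differed by -0.36 ± 0.12 and Rabggta, its partner subunit, by 0.17 ± 0.10 (SE, adjusted p = 0.238 and 0.516). Pggt1b, a subunit of the type I enzyme that adds geranylgeranyl groups, differed by 0.38 ± 0.14 and Fnta, the subunit it shares with farnesyltransferase, by -0.13 ± 0.07 (SE, adjusted p = 0.280 and 0.493). The partner subunits thus had values of opposite sign, and neither pair was called.

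**Figure D5:**
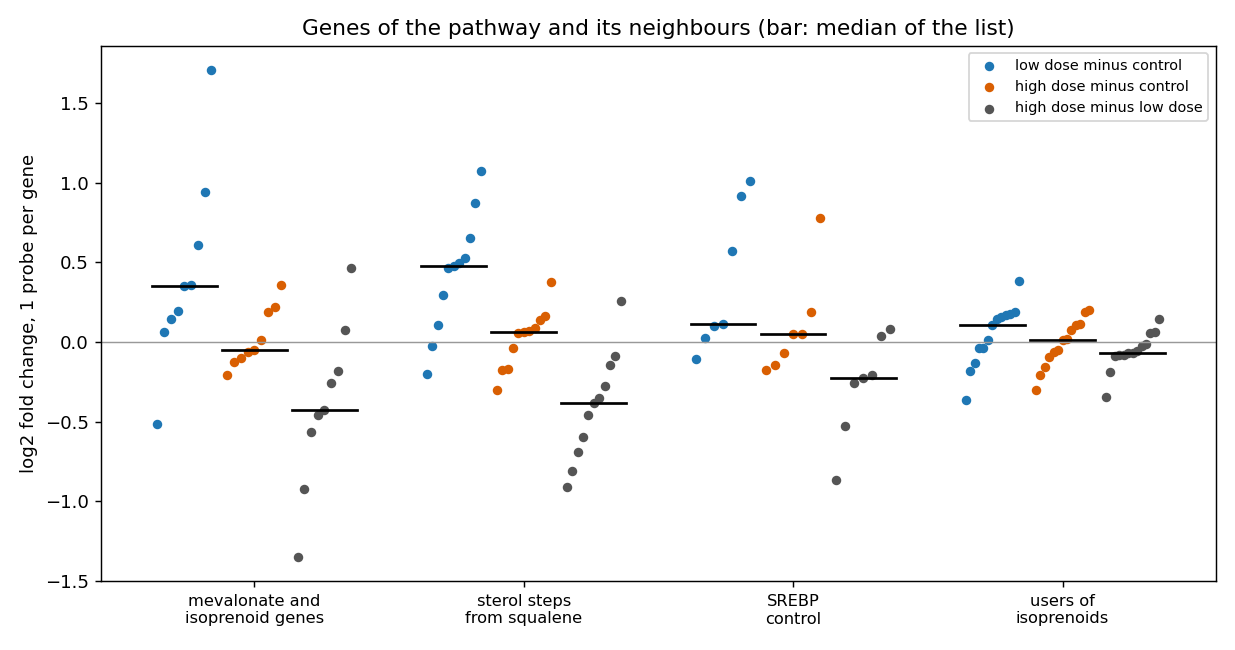
Log2 fold changes of single genes, each from its brightest probe, in the members and 3 lists of the pathway's neighbours, for low dose minus control, high dose minus control and high dose minus low dose, with a bar at the median of each list. The medians of the members are 0.35, -0.05 and -0.42 and those of the sterol steps 0.47, 0.06 and -0.38, while the median of the users of isoprenoids is 0.11 for low dose minus control.

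Markers of the liver's cell types were read for the same comparisons. The share of all genes above 0 was 47.4% for low dose against control, and 11.3% had an unadjusted p under 0.05. For low dose against control, 5 of 5 cholangiocyte markers were above 0 with a median of 0.46. Among them Krt19, at 0.79 ± 0.22 (SE, adjusted p = 0.133), alone had an unadjusted p under 0.05. Their summed level on the linear scale ran from 9.66 to 28.5 at the low dose and from 8.50 to 20.9 in controls. That sum is mostly Spp1, which averaged 3.84 at the low dose, against -0.19 for Sox9, the next brightest. Kupffer cell and macrophage markers were above 0 for 9 of 10, with a summed level of 39.0 to 108.3 at the low dose and 31.9 to 96.7 in controls. Of 9 hepatocyte markers 7 were below 0. Their summed level was 1058 to 1373 at the low dose and 1145 to 1679 in controls, a sum carried by the saturated probes. At an unadjusted p under 0.05, 4 of the 9 were lower, the saturated Alb, Fgb, Apoa1 and Ahsg. Endothelial markers were above 0 for 4 of 8, with 23.2 to 48.5 at the low dose and 24.0 to 40.2 in controls. Stellate cell markers were above 0 for 4 of 8, with 17.6 to 84.8 at the low dose and 16.1 to 79.7 in controls. Spots marked as outliers add nothing to these sums. The lowest stellate sums are too small to hold Dcn, the brightest stellate marker, which averaged 5.59 at the low dose and 5.62 in controls on the log2 scale. The stellate ranges thus partly reflect the arrays on which that spot was marked. B cell markers were above 0 for 6 of 6, with 4.12 to 8.75 at the low dose and 2.85 to 6.63 in controls. T and NK cell markers were above 0 for 0 of 4, with 0.377 to 0.908 at the low dose and 0.438 to 1.17 in controls, and neutrophil markers for 2 of 2, with 1.19 to 5.90 at the low dose and 0.942 to 2.65 in controls. Cd8a of the T and NK list and Ngp, Camp and Elane of the neutrophil list did not pass the filter on dim probes. No marker of these lists was called, the ranges overlapped in every list, and the adipocyte markers Adipoq, Plin1 and Lep were not well above background on any array. The remaining adipocyte marker, Cfd, was dim and stood 0.72 ± 0.49 over control at the low dose and 1.26 ± 0.49 over control at the high dose (SE, adjusted p = 0.605 and 0.665). For high dose against control, B cell markers were again above 0 for 6 of 6, where 51.8% of all genes were. Their summed level was 5.37 to 14.4 at the high dose and 2.85 to 6.63 in controls. At an unadjusted p under 0.05, 3 B cell markers and Cfd were higher, where 6.63% of all genes had such a p. The same 4 hepatocyte markers were lower at such a p. The part of cell makeup in the Mvd difference was not tested.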

How the data were processed

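Liver RNA of 18 mice was measured, 1 mouse per array. Per the file headers, the deposited scanner files hold spot intensity from 1-colour Agilent arrays, and the intensity used here was background-subtracted by the scanner software but not normalised between arrays. Per the submitters' processing notes, Agilent Feature Extraction 9.5 and limma were used. The deposited value table holds log2 values for 22514 probes and served as an alternative; its values correlate with the scanner values of the same array, and its normalisation is not given in the sources used here.

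Levels here are log2 intensities less the array's own 75th percentile. Outlier-marked spots were left out, repeated spots averaged, and probes kept when well above background on at least 6 of 18 arrays. Every kept probe was tested with limma 3.58.1 (R 4.3.3; lmFit and eBayes, all 18 arrays, group as the only term, 2-sided, Benjamini-Hochberg over all kept probes, threshold 0.05). The procedure was run on simulated data with known changes and independent normal errors. Those data held no slide or brightness effects, so they cannot show how reliable a call near the threshold is. Precision is set by the number of arrays, with a median standard error of 0.165 per log2 fold change.

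The members and lists were chosen with earlier results of these data known. All member probes are named, up to 4 genes of each other list by the smallest p for low dose against control, and the 6 non-member genes most correlated with the member of smallest p. Srebf2 and single cell type markers are named in addition. A further list, of neighbours and paralogs, is not reported here. Names were matched through accessions in a RefSeq table (GRCm38.p6) for 23483 probes. Probe positions are those of the files (mm8). Alternatives were other scalings, background methods, filters, fits and blocks, and leaving out each array. The labels call the animals separate mice and give no shared origin to mice of the same number, and the numbers were not used to pair them.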

Additional observations from a re-analysis of the deposited data

Results flagged for a closer look

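In groups of 4 to 6 mice, 53 groups of member probe values were searched for a mouse far from the other mice of its group (Dixon's test at the 95% level), and 5 were found. Chance flags about 1 group in 20. On Pmvk probe A_51_P492408, control mouse 6 had 4.21, where the nearest control had 5.03. On Idi1 probe A_51_P329711, the same mouse had 2.92, where the nearest control had 3.76. On Ggps1 probe A_51_P179604, control mouse 3 had -1.06, where the nearest control had -0.73. On Ggps1 probe A_51_P469902, high-dose mouse 3 had -1.90, where the nearest high-dose mouse had -2.16. On the dim Fdft1 probe A_52_P136138, low-dose mouse 2 had -5.19, where the nearest low-dose mouse had -4.19.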

How the results depend on the processing

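The count of called member probes for low dose against control was 1. It stayed 1, with Mvd, under quantile normalisation, the deposited value table, only probes well above background on all arrays, the brightest probe per gene, eBayes with trend and robust, array weights, only the groups compared, and outlier spots kept. It was 0 with the array median as scale, normexp, no filter on dim probes, slide as a block, array brightness as a covariate, and a replicate block by mouse number. Under these 14 alternatives the Mvd log2 fold change ran from 1.49 to 1.99 and its adjusted p from 0.0188 to 0.383. Leaving out each array gave counts of 0 to 1. In the other comparisons the counts were 0 under every alternative run, leaving out each array included. With the replicate block Mvd had an adjusted p of 0.0877. No label ties mice of the same number. Their deviations correlated at over 0.1 for 1 of 6 numbers for low dose against control, 4 of 6 for high dose against control and 2 of 6 for high against low dose, and a mouse's best partner had its own number for 1, 3 and 2 of the 6, so the pairing was not taken as given. Where a filter changed the number of probes tested, that number changed the adjustment; in the other cases the cause was not tested.

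Sign changes were found only for values that were not called. Normexp moved the median of all probes to -0.15 for low dose against control and to 0.12 for high against low dose. With it, low dose against control turned to -0.42 for Hmgcs1 A_52_P119039, -0.0068 for Mvk A_51_P169527, -0.072 for Ggps1 A_51_P179604, -0.35 for Ggps1 A_52_P228247 and -0.39 for Fdft1 A_52_P136138. High dose against control turned to 0.088 for Acat2, 0.23 for Hmgcs1 A_51_P146941, 0.0070 for Pmvk A_51_P492408, 0.030 for Idi1 A_51_P329711 and -0.17 for Fdft1 A_52_P136138. High against low dose turned to 0.21 for Hmgcs1 A_52_P119039, 0.14 for Ggps1 A_51_P469902, 0.22 for Ggps1 A_52_P228247 and 0.22 for Fdft1 A_52_P136138.

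The array median gave -0.051 for Fdps A_51_P379798 (high dose against control) and -0.022 for Mvk A_51_P169527 (high against low dose). The deposited table gave -0.081 for Hmgcs1 A_52_P119039 (low dose against control), 0.094 for Hmgcs1 A_51_P146941 (high dose against control) and -0.047 for Mvk A_51_P169527 (high against low dose). Array weights gave, for Ggps1 A_52_P228247, 0.063 (high against low dose), 0.052 (high dose against control) and -0.011 (low dose against control). They also gave -0.16 for Fdps A_51_P379798 (high dose against control), and -0.026 and -0.015 for Mvk A_52_P569067 and A_51_P169527 (high against low dose). Slide as a block gave -0.0090 for Ggps1 A_52_P228247 (low dose against control) and -0.064 for Fdps A_51_P379798 (high dose against control). Brightness as a covariate gave -0.20 for Hmgcs1 A_52_P119039 and -0.096 for Ggps1 A_52_P228247 (low dose against control).

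Leaving out 1 array turned the sign of 11 values, all under 0.10 in size with no array left out. For low dose against control they ran from -0.23 to 0.35 for Hmgcs1 A_52_P119039, -0.0022 to 0.096 for Ggps1 A_51_P179604 and -0.050 to 0.054 for Ggps1 A_52_P228247. For high dose against control they ran from -0.23 to 0.058 for Hmgcs1 A_51_P146941, -0.26 to 0.056 for Idi1 A_52_P441634, -0.12 to 0.17 for Fdps A_51_P379798, -0.25 to 0.18 for Fdps A_52_P593965 and -0.10 to 0.044 for Ggps1 A_52_P228247. For high against low dose they ran from -0.016 to 0.19 for Mvk A_52_P569067, -0.031 to 0.14 for Mvk A_51_P169527 and -0.11 to 0.037 for Ggps1 A_52_P228247. Signal over background limits the dim Fdft1 probe A_52_P136138, and missing spots limit Acat2 at the low dose.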

Other observations

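Genes of the circadian clock, which sets a daily rhythm in liver, were read beside the members. Of 14 clock genes, 8 were above 0 for low dose against control, 1 was higher and 1 lower at an unadjusted p under 0.05, and 0 were called by limma, where 11.3% of all genes had such a p. Per2, a repressor of the clock loop, differed by 1.63 ± 0.40 (SE, adjusted p = 0.0934), Clock, an activator of the loop, by -0.21 ± 0.10, Nr1d1, a repressor of the activators, by -0.72 ± 0.36 and Nfil3, a repressor of clock outputs, by -0.28 ± 0.15 (SE, adjusted p = 0.408, 0.450 and 0.490). For high dose against control, 5 of the 14 were higher and 4 lower at an unadjusted p under 0.05, where 6.63% of all genes had one, with 0 called.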
